A study of Homo sapiens with 12 samples.

Results

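A set of 6 of the Frizzled genes on the nCounter Stem Cell Panel, FZD1, FZD2, FZD3, FZD5, FZD6 and FZD8, were examined in LX-2 cells, a human cell line of activated hepatic stellate cells, the collagen-producing cells of the injured liver. They were picked by name out of the 199 panel genes, with earlier results of these data known. The panel holds 9 Frizzled genes in all; FZD7, FZD9 and FZD10 are given only for comparison. Cells in 6-well plates had received 10 pmol/ml of either a mimic of miR-25-3p (miR-25) or a control mimic with a Caenorhabditis elegans sequence, delivered with Lipofectamine LTX, and RNA was taken 24 h or 48 h later. There were 3 samples in each of the 4 groups (control and miR-25 at 24 h, control and miR-25 at 48 h), 12 samples in all. A control sample and a miR-25 sample of the same replicate and time share 1 transfection efficiency in the labels. They were taken as 1 transfection and formed a pair, which gave 6 pairs. All samples were the same cell line, so the p-values measure spread within 1 line. In the time comparisons this was the spread between transfections, and in the miR-25 comparisons that of the differences within pairs. No source used here gives a passage or a second clone.

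Frizzled proteins are seven-pass membrane receptors that bind secreted Wnt ligands through a cysteine-rich domain outside the cell. With an LRP co-receptor they recruit Dishevelled, which holds back the destruction of β-catenin; without it they can act through the noncanonical branches of the pathway, which reach the cytoskeleton and calcium. FZD1, FZD2 and FZD7 form one subfamily by sequence, FZD5 and FZD8 another, and FZD3 and FZD6, best known for planar cell polarity, one more. Wnt signals act on hepatic stellate cells during liver fibrosis, and WNT5A is among the ligands these cells make.

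Each transcript was counted with 1 probe pair on a target of 100 bases, so closely related receptors had to be told apart by those bases alone. The targets of FZD2 and FZD8 are shown because they share the longest run seen between 2 of the 6 receptors. They are given 5′ to 3′ on the transcript strand, and capitals mark the shared run of 9 bases.
FZD2 target: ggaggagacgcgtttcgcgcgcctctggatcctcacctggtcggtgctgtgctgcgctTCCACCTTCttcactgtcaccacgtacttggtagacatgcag
FZD8 target: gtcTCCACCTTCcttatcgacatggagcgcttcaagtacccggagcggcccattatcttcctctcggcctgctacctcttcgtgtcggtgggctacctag
The run lies at bases 59 to 67 of the FZD2 target and at bases 4 to 12 of the FZD8 target. The longest runs that any of the 9 Frizzled targets shared with another were 7 to 9 bases. The sequence of mature miR-25-3p, which the mimic imitates, is shown with its seed, bases 2 to 8, in capitals. This sequence lies at chr7:100093571-100093592 on the minus strand of GRCh38.p14, after RefSeq.
hsa-miR-25-3p: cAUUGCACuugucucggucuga
The match to this seed on a transcript, GTGCAAT, was searched on the transcript strand. It was in 0 of the 9 Frizzled targets and in 0 of the 193 panel targets whose sequence was given. These are windows chosen for probes, and the rest of each transcript was not searched.

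Total counts over the panel genes were 321243 to 409581 per sample at 24 h and 107377 to 200821 at 48 h. The labels give efficiencies of 0.59 to 0.81 at 24 h and 0.42 to 0.65 at 48 h, so the times were taken as separate transfections. Time, transfection and depth cannot be told apart. Levels below are counts per 100000 panel counts of the sample, and they describe shares of the RNA: in a bulk sample, fewer cells that express a gene and less RNA per cell cannot be told apart. Both samples of 48 h replicate 1 stood apart. Their CXCL12 levels were 335 (control) and 208 (miR-25) against 2976 to 3263 in the other 48 h samples, their COL1A1 levels 740 and 540 against 1448 to 1857, and their transfection had the lowest efficiency, 0.42 against 0.59 to 0.81. The part of these differences in the results below was not tested, and the changes between the times are given without 48 h replicate 1 too. To a lesser degree 24 h replicate 1 also differed from replicates 2 and 3. Chi-square per degree of freedom was 13.2 and 16.2 in controls and 16.8 and 14.6 in miR-25 cells. Between replicates 2 and 3 it was 3.21 and 3.08. For 48 h replicate 1 it was 51.4 to 73.1. The efficiency of 24 h replicate 1 was 0.59, against 0.75 and 0.81. The 5 stellate or fibroblast type markers of the panel (COL1A1, CDH2, CXCL12, CD44 and FGF2) were above background in all 12 samples, with a summed level of 8902 to 9588 at 24 h and 5475 to 8682 at 48 h. Of the 14 markers of other cell types, the defining T cell marker CD3D, CD8B, SOX2 and S100B were above background in no sample and only POU5F1 in all 12, with at most 54 counts, followed by CD4 in 11. The summed level of each of these lists was at most 21.8 at 24 h and 29.1 at 48 h.

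The 6 receptors were all above background in 12 of 12 samples, where background is set by the sample's own negative control probes, as their mean plus 2 SD (5.52 to 16.5 counts). Among the comparison genes FZD7 was above it in 12 of 12 samples, and FZD9 and FZD10 in 0 of 12, with at most 9 counts each. By mean level FZD6 ranked 74th of the 199 panel genes, FZD1 88th, FZD2 99th, FZD5 110th, FZD8 111th and FZD3 116th. All 6 thus lay in the middle of the whole panel, of which only 136 genes had a mean of at least 20 counts. FZD7 ranked 96th, between FZD1 and FZD2.

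In control cells at 24 h the order of the levels was FZD6, FZD1, FZD2, FZD8, FZD5 and FZD3. FZD6, a receptor of planar cell polarity and hair patterning, was at 138, 157 and 155 in the 3 replicates (150 ± 10.4, SD, n = 3). FZD1 was at 91.0, 84.3 and 107 (94.1 ± 11.7), and FZD2, which binds WNT5A, at 61.1, 64.5 and 78.4 (68.0 ± 9.20). Each of these 3 receptors stood above the next with no overlap between replicates. FZD8 was at 28.9, 35.3 and 43.9 (36.0 ± 7.51) and FZD5 at 33.6, 31.8 and 33.9 (33.1 ± 1.15), so this pair of related receptors overlapped and had no order. FZD3 was lowest, at 15.6, 19.6 and 18.1 (17.7 ± 2.01). The miR-25 samples at 24 h gave the same order, again with FZD8 and FZD5 overlapping. Levels of different genes were counted with different probes, with no length in the scale, and probes may differ in efficiency; the order is therefore a description with no test.

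The composition was broadly kept at 48 h, with FZD6 first and FZD1 second in each of the 12 samples. FZD6 made up 37.7% ± 2.27 of the counts of the 6 receptors in control cells at 24 h and 34.2% ± 4.22 at 48 h. FZD1 made up 23.6% ± 1.82 and 25.8% ± 3.90, and FZD2 17.0% ± 0.856 and 15.4% ± 7.68 (SD, n = 3 each). FZD3 took the smallest share, 4.45% ± 0.461 at 24 h and 7.47% ± 3.04 at 48 h. The wide SDs at 48 h came with replicate 1: there FZD3 ranked 3rd in the control sample and 4th in the miR-25 sample, while it was the last of the 6 in the other 10 samples. In the same control sample FZD2 was at rank 5. Without both samples of 48 h replicate 1 the order of the control group means at 48 h was the same, FZD6, FZD1, FZD2, FZD5, FZD8 and FZD3.

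Together the 6 receptors held a larger share of the panel counts at 48 h. Their summed level was 368, 393 and 436 in control cells at 24 h and 516, 480 and 478 at 48 h (399 ± 34.5 and 491 ± 21.5, SD, n = 3). In miR-25 cells it was 410, 411 and 427 at 24 h and 477, 494 and 470 at 48 h (416 ± 9.60 and 480 ± 12.4). All 6 samples at 48 h lay above all 6 at 24 h, also when the counts were scaled by 5 reference genes (376 to 435 against 442 to 603) or by a total without GAPDH (370 to 424 against 474 to 539). With FZD7 added the ranges overlapped, 458 to 543 at 24 h against 534 to 595 at 48 h, though not with the total without GAPDH (461 to 527 against 537 to 621). Both samples of a transfection are not independent, so each sum compares 3 against 3 transfections. Among single genes of the panel, 21.3% in controls and 17.9% in miR-25 cells lay wholly above at 48 h. No such share was formed for sums of 6 genes. For the 6 receptors the ratio of the 48 h to the 24 h mean sum was 1.23 in controls and 1.155 in miR-25 cells. For the 7 it was 1.12 in controls and 1.056 in miR-25 cells.

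**Figure D1:**
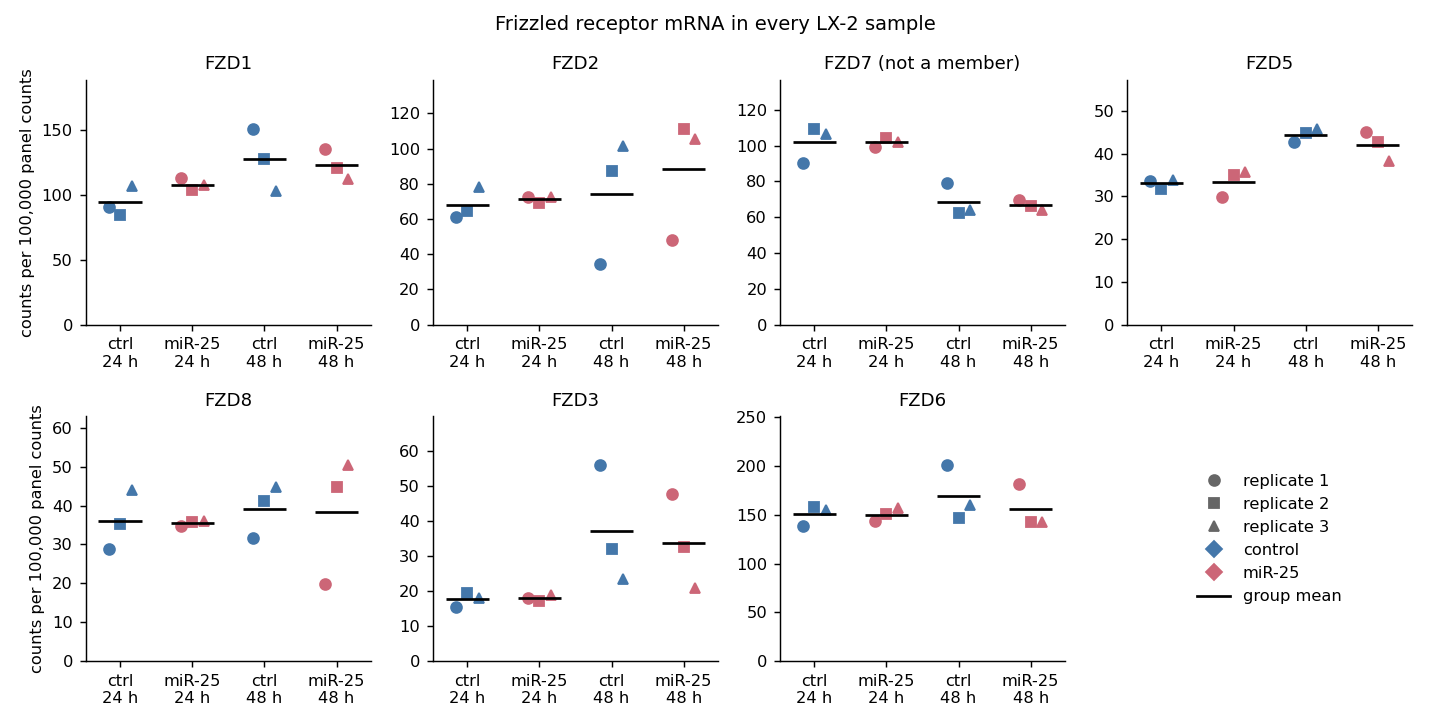
Level of 6 Frizzled receptors and of FZD7 in each of the 12 samples, in counts per 100000 panel counts, with each axis from 0. Points are single samples, shaped by replicate and coloured by mimic, and lines are the means of 3. At 48 h FZD3 and FZD5 lie above, and FZD7 below, all 24 h samples. Both samples of 48 h replicate 1 lie below all other samples for FZD2 and above them for FZD1, FZD3 and FZD6. For FZD8 only the miR-25 sample of that replicate lies below all other samples.

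The comparison of 48 h with 24 h asked how the receptor set moved with time in culture after transfection. None of the 6 receptors passed the threshold of 0.05 in edgeR's quasi-likelihood test with Benjamini-Hochberg adjustment over the panel, in control or in miR-25 cells; the panel as a whole passed at 5.15% of 136 genes in controls and 5.0% of 140 in miR-25 cells. At an unadjusted p under 0.05 there were 3 receptors in controls (FZD1, FZD3 and FZD5), beside 30.9% of the panel, and 1 in miR-25 cells (FZD3), beside 31.4%. DESeq2 and limma called 0 of the 6 in both arms. The fitted log2 changes of all 6 were above 0 in both arms, with a median of 0.29 in controls and 0.25 in miR-25 cells, beside a median over all genes tested of 0.13 and 0.08. The members were chosen with earlier results of these data known, and FZD7, which is not among them, fell (-0.58 in controls, -0.61 in miR-25 cells). The shared direction is therefore a description of this choice of genes.

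FZD3 had the largest fitted change of the 6. Its levels were 15.6, 19.6 and 18.1 in controls at 24 h and 55.9, 32.0 and 23.5 at 48 h; in miR-25 cells they were 18.1, 17.2 and 19.0 and then 47.6, 32.7 and 20.9. The 48 h samples lay above the 24 h samples in both arms, but they spread widely, with replicate 1 highest and replicate 3 close to the 24 h values. The log2 change was 1.03 ± 0.322 (SE) in controls (2.04-fold, 95% interval 1.21 to 3.44; edgeR adjusted p = 0.118) and 0.88 ± 0.300 in miR-25 cells (1.85-fold, 1.13 to 3.01; adjusted p = 0.107). Without 48 h replicate 1 it was 0.63 (adjusted p = 0.0391) and 0.54 (adjusted p = 0.0746). FZD3 also had the lowest mean count, with 42 to 74 per sample, so that counting error alone was 11.6% to 15.4% of a value.

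FZD5 moved less but with a small spread. Its levels were 33.6, 31.8 and 33.9 in controls at 24 h and 42.8, 44.8 and 45.8 at 48 h, and in miR-25 cells 29.8, 34.9 and 35.6 and then 45.1, 42.8 and 38.3. Neither arm overlapped between the times, and replicate 1 did not stand apart for this gene. The log2 change was 0.43 ± 0.136 in controls (1.34-fold, 95% interval 1.08 to 1.68; adjusted p = 0.118) and 0.33 ± 0.156 in miR-25 cells (adjusted p = 0.204). Without 48 h replicate 1 the control value was 0.45, now past the threshold (adjusted p = 0.0391).

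FZD3 and FZD5 were the only members whose 48 h samples were all above the 24 h samples, in controls and in miR-25 cells alike. Over the panel the same held for 21.3% of genes in controls and 17.9% in miR-25 cells, so 2 of 6 is near the background. No member lay wholly below, as 14.0% of the genes did in controls and 22.9% in miR-25 cells.

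FZD2 differed widely between the replicates at 48 h. Its levels were 61.1, 64.5 and 78.4 in controls at 24 h and 34.5, 87.4 and 102 at 48 h; in miR-25 cells they were 72.3, 68.8 and 72.7 and then 48.3, 111 and 106. Replicate 1 thus lay below every 24 h sample and replicates 2 and 3 above every one. With all samples the log2 change was 0.16 ± 0.337 in controls (95% interval -0.63 to 0.96, adjusted p = 0.750) and 0.32 ± 0.283 in miR-25 cells (adjusted p = 0.479). Without 48 h replicate 1 it was 0.48 in controls (adjusted p = 0.0371) and 0.60 in miR-25 cells (adjusted p = 0.00195).

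FZD8, like FZD2, was lowest in replicate 1 at 48 h in both arms. Control levels at 24 h were 28.9, 35.3 and 43.9, followed by 31.7, 41.2 and 44.7 at 48 h, and in miR-25 cells 34.7, 35.7 and 35.9 and then 19.96, 44.6 and 50.3. The groups overlapped, and the log2 change was 0.14 ± 0.217 in controls (adjusted p = 0.655) and 0.12 ± 0.306 in miR-25 cells (adjusted p = 0.767). Without 48 h replicate 1 it was 0.27 in controls (adjusted p = 0.303) and 0.43 in miR-25 cells (adjusted p = 0.0325).

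The 2 most abundant receptors overlapped between the times in both arms. FZD1 was at 91.0, 84.3 and 107 in controls at 24 h and at 151, 128 and 103 at 48 h. Its log2 change was 0.43 ± 0.172 (adjusted p = 0.139) in controls and 0.18 ± 0.113 (adjusted p = 0.332) in miR-25 cells. FZD6 was at 138, 157 and 155 in controls at 24 h and at 200, 146 and 159 at 48 h. Its log2 change was 0.16 ± 0.144 in controls (95% interval -0.18 to 0.50, adjusted p = 0.445) and 0.05 ± 0.126 in miR-25 cells (-0.25 to 0.35, adjusted p = 0.767), so that changes beyond 1.42-fold up lay outside the control interval. Leaving out 48 h replicate 1, the FZD6 value was 0.03 in controls and turned to -0.07 in miR-25 cells (adjusted p = 0.869 and 0.533), and that of FZD1 was 0.29 and 0.11 (adjusted p = 0.146 and 0.397).

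Without 48 h replicate 1 the receptors called were thus FZD2, FZD3 and FZD5 in controls and FZD2 and FZD8 in miR-25 cells, all higher at 48 h. Across the panel 29.0% of genes in controls and 26.6% in miR-25 cells were called in that direction without the sample, so the count for the members rose along with that for the panel. When the counts of both samples of a transfection were summed and replicate 1 left out, FZD2, FZD3 and FZD5 were called, beside 32.1% of the panel in that direction; with all transfections summed, 0 were. The sums without replicate 1 were added after the data had been seen.

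FZD7, of the same subfamily as FZD1 and FZD2 and a receptor of intestinal stem cells, went the other way. It was at 90.0, 109 and 106 in controls at 24 h and at 79.2, 62.5 and 63.8 at 48 h, and at 99.1, 104 and 102 and then 69.5, 66.0 and 64.2 in miR-25 cells, with no overlap in either arm. The log2 change was -0.58 ± 0.149 in controls (adjusted p = 0.0771) and -0.61 ± 0.106 in miR-25 cells (0.654-fold, 95% interval 0.550 to 0.777; adjusted p = 0.0272). In controls FZD7 was called without 48 h replicate 1 (-0.69, adjusted p = 0.00633), with DESeq2 (0.00671), with summed transfections (0.0272) and with all 12 samples in 1 fit (0.00901). The call in miR-25 cells was lost with reference gene scaling (adjusted p = 0.0521), with the replicate block (0.0732) and with 5 of the 6 samples left out in turn (adjusted p 0.0694 to 0.136), while the value stayed between -0.65 and -0.59 whichever sample was left out.

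**Figure D2:**
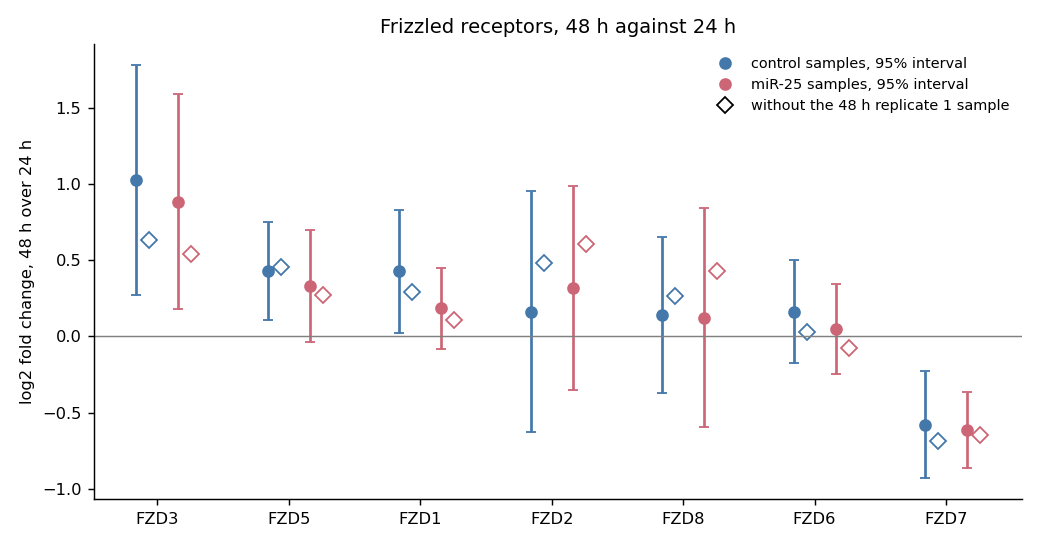
Log2 fold change from 24 h to 48 h for 6 Frizzled receptors and FZD7, with filled points for the fit of 3 against 3 samples, bars for its 95% interval, and open diamonds for the value without the 48 h replicate 1 sample. FZD7 lies below 0 in both arms, FZD3 shifts down without that sample (from 1.03 to 0.63 in controls), and FZD2 shifts up (from 0.16 to 0.48).

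Ratios of 2 receptors within a sample do not depend on how samples are scaled, and 21 such ratios were formed among the 6 members and FZD7, after their levels had been seen. They are given with no test, as 3 against 3 samples cannot reach an exact permutation p below 0.1. Both samples of a transfection are not independent. How often other pairs of panel genes part between the times in this way was not examined. The ratios over FZD7 all share the fall of FZD7 itself, so they are not separate results. FZD3 counts were 0.165 to 0.187 of the FZD7 counts in the 6 samples at 24 h and 0.326 to 0.706 at 48 h. Among the members alone, only FZD3 over FZD6, the planar polarity pair, had no overlap in all samples, with 0.113 to 0.126 at 24 h and 0.146 to 0.279 at 48 h. Against FZD7, FZD1 went from 0.771 to 1.14 at 24 h to 1.62 to 2.05 at 48 h, so that FZD1 and FZD7, about level at 24 h, were apart at 48 h in each sample. FZD5 went from 0.291 to 0.374 at 24 h to 0.541 to 0.718 at 48 h, and FZD6 from 1.44 to 1.54 at 24 h to 2.15 to 2.60 at 48 h. FZD2 over FZD7 was 0.589 to 0.739 at 24 h and 0.435 to 1.69 at 48 h, an overlap that rested on 48 h replicate 1; without it the 48 h range was 1.40 to 1.69. FZD2 over FZD6 behaved likewise, with 0.410 to 0.506 at 24 h and 0.172 to 0.783 at 48 h, or 0.597 to 0.783 without replicate 1.

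**Figure D3:**
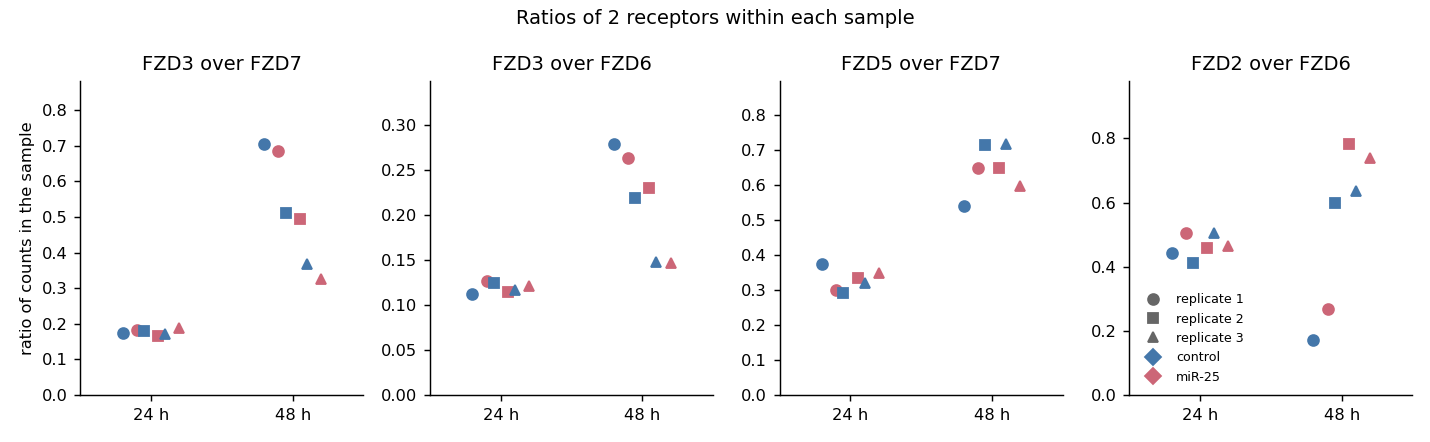
Ratio of the counts of 2 receptors in each sample at 24 h and 48 h, with axes from 0, points shaped by replicate and coloured by mimic. FZD3 over FZD7, FZD3 over FZD6 and FZD5 over FZD7 have no overlap between times, while for FZD2 over FZD6 replicate 1 lies below and the others above the 24 h range of 0.410 to 0.506.

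The comparison of miR-25 with control cells asked whether the mimic changed receptor mRNA. The labels give the miR-25 level over its control as 62.34, 192.53 and 350.13 for replicates 1 to 3 at 24 h and 347.45, 482.36 and 681.22 at 48 h, all far above the control wells. None of the 6 receptors passed edgeR's test with the transfection pair as a block, at 24 h (panel 0.0% of 136 genes), at 48 h (0.735%), over both times (0.0%) or for the difference between the times (0.0%). At an unadjusted p under 0.05 there was 1 receptor at 24 h, FZD1, beside 6.62% of the panel, and 0 at 48 h (12.5%), over both times (15.4%) and for the difference (5.88%). DESeq2 and limma called 0 in each.

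FZD1 was higher with miR-25 at 24 h in each pair, with ratios of 1.24, 1.23 and 1.00 (107.2 against 107.1 in replicate 3), and at 48 h the ratios were 0.896, 0.944 and 1.09. Over 3 pairs each, the ratio averaged 1.16 ± 0.134 (SD) at 24 h and 0.976 ± 0.0990 at 48 h. The log2 change was 0.20 ± 0.0744 at 24 h (95% interval 0.04 to 0.36; edgeR adjusted p = 0.543) and -0.04 ± 0.0956 at 48 h (-0.24 to 0.17; adjusted p = 0.842). The difference between the times was -0.24 ± 0.121 (adjusted p = 0.631), so it was not shown that the effect changed.

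FZD2 was higher with miR-25 in 5 of 6 pairs. At 24 h its ratios were 1.18, 1.07 and 0.926 (mean 1.06 ± 0.129), and at 48 h 1.40, 1.27 and 1.04 (1.24 ± 0.183). The ratio of 1.40 came from replicate 1, where FZD2 had 37 and 75 counts. The log2 change was 0.23 ± 0.112 at 48 h (95% interval -0.01 to 0.47; adjusted p = 0.385), or 0.18 without replicate 1 (adjusted p = 0.821), and 0.13 over both times (adjusted p = 0.338). Over the 6 pairs a two-sided exact sign-flip permutation test of the mean log2 ratio gave p = 0.125 (0.472 adjusted over all genes tested), where the smallest p it allows is 0.0313.

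FZD6 had the smallest spread between pairs of the 6. Its ratios were 1.04, 0.956 and 1.01 at 24 h (mean 1.00 ± 0.0408) and 0.904, 0.971 and 0.897 at 48 h (0.924 ± 0.0410). The log2 change was 0.00 at 24 h (95% interval -0.12 to 0.12; adjusted p = 1.00) and -0.12 ± 0.0723 at 48 h (-0.27 to 0.04; adjusted p = 0.540). As folds, the 24 h interval ran from 0.920 to 1.09 and the 48 h interval from 0.827 to 1.02.

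The other 3 receptors had pairs on both sides of 1 at each time. FZD8 ranged most, with 1.20, 1.01 and 0.818 at 24 h and 0.630, 1.08 and 1.12 at 48 h; the lowest ratio again belonged to 48 h replicate 1, from 34 and 31 counts, where counting error was up to 18.0% of a value. Its fitted fold was 0.994 at 24 h (95% interval 0.830 to 1.19) and 1.00 at 48 h (0.776 to 1.29); without replicate 1 the log2 change at 48 h was 0.15 (adjusted p = 0.864). FZD3 had ratios of 1.16, 0.880 and 1.05 at 24 h and 0.853, 1.02 and 0.891 at 48 h, and FZD5 of 0.886, 1.10 and 1.05 and then 1.05, 0.955 and 0.837. Their fitted folds at 48 h were 0.913 (95% interval 0.735 to 1.14) for FZD3 and 0.932 (0.764 to 1.14) for FZD5.

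At 24 h FZD1 alone of the 6 was above its control in all 3 pairs, beside 25.7% of the panel, and none was below in all 3, beside 5.88%. At 48 h FZD2 was above in all 3 pairs, beside 16.9% of the panel, and FZD6 below in all 3, beside 18.4%. One receptor of 6 in each case is near the background.

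**Figure D4:**
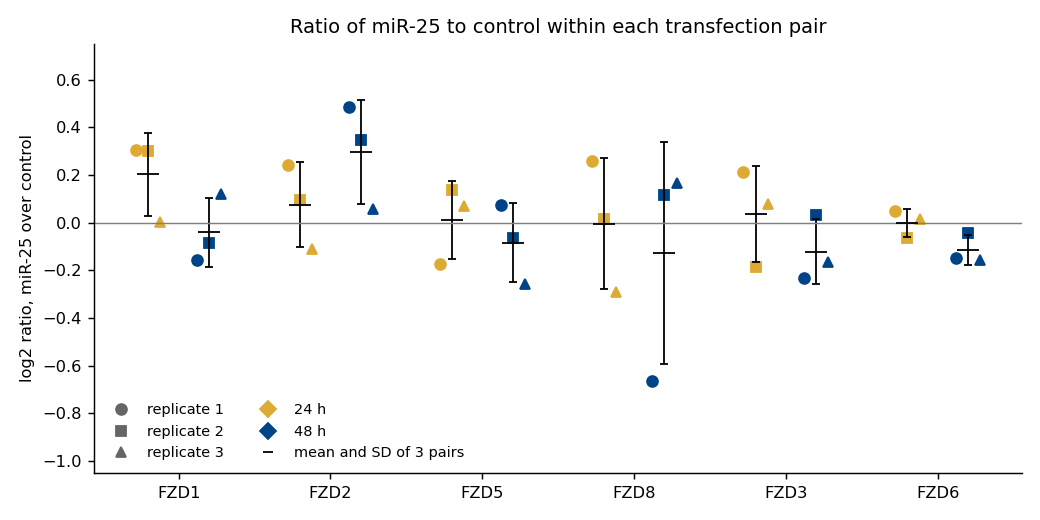
Log2 ratio of miR-25 to control in each of the 6 transfection pairs for 6 Frizzled receptors, on counts per 100000 panel counts, with the mean and SD of 3 pairs at each time. FZD6 has the least spread, FZD8 at 48 h the most (ratios of 0.630 to 1.12), and only FZD1 at 24 h and FZD2 and FZD6 at 48 h have 3 pairs on 1 side of 0.

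How far the receptors varied together across the 12 samples depended for most pairs on 48 h replicate 1. The Pearson r of log2(level + 1) is given as a description, since the samples share times, transfections and depth. FZD2 and FZD8, of different subfamilies, had r = 0.77 over 12 samples and 0.90 over the 10 without 48 h replicate 1. FZD1 and FZD2 had r = -0.33, or 0.65 without these samples, and FZD3 and FZD6 had 0.74, or -0.08 without them, with 0.84 within 24 h and 0.81 within 48 h (6 samples each). FZD5 and FZD8 had r = -0.01, or 0.62. Only a few pairs kept their value, among them FZD5 and FZD7 with -0.86 and -0.87, and within a time that pair had r = 0.02 at 24 h and 0.00 at 48 h.

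Among the panel genes that passed the count filter (mean of 20 counts or more), those most like each receptor across the 12 samples were TUBB (r = 0.98), a β-tubulin, and GUSB (0.95), a lysosomal enzyme, for FZD2, both reference genes of the panel. For FZD5 they were SMO (0.95), the Hedgehog transducer, and FURIN (0.94), a protease. For FZD6 they were PSEN2 (0.97), a γ-secretase subunit, and PRKCI (0.93), for FZD3 PRKCH (0.94) and CSNK1A1 (0.94), for FZD8 COL1A1 (0.90) and NCSTN (0.87), and for FZD1 GAS1 (0.86) and FZD3 (0.86). Leaving out 48 h replicate 1 gave r of 0.90 to 0.94 for the genes named with FZD2 and FZD5 and 0.67 to 0.86 for the others, the lowest being FZD1 with FZD3 (0.67) and FZD6 with PRKCI (0.68). Within the 6 samples at 24 h they ran from -0.05 (FZD3 with PRKCH) and 0.06 (FZD1 with FZD3) to 0.95, and at 48 h from 0.56 to 0.99.

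Around the receptors, the Wnt pathway genes of the panel were counted by role. Of 19 Wnt ligands, WNT3, WNT5A and WNT5B were above background in all 12 samples and 9 in none. WNT5A, a noncanonical ligand of FZD2 and FZD5, was highest, at 352 to 677 per 100000. WNT5B was the only ligand called between the times: the log2 change was -1.55 ± 0.251 in controls (edgeR adjusted p = 0.0140) and -1.46 ± 0.213 in miR-25 cells (adjusted p = 0.0158). With 1 sample left out in turn it was -1.88 to -1.31 in controls (adjusted p 0.000180 to 0.0816) and -1.70 to -1.24 in miR-25 cells (7.10e-05 to 0.0927), and the call was lost in 4 of the 6 runs in each arm, those without a 24 h sample or without 48 h replicate 2, and with the replicate block. Both secreted inhibitors, SFRP4 and WIF1, were under the count filter. Of the 4 receptor-proximal relays, which include the Dishevelled genes DVL1, DVL2 and DVL3, all were above background in each sample and 0 were called in any comparison. Of 10 genes of β-catenin destruction and turnover, APC, a scaffold of the destruction complex, was called lower at 48 h in miR-25 cells (log2 -0.58 ± 0.113, adjusted p = 0.0292); with 1 sample left out the call held only without 48 h replicate 1 (adjusted p 0.00265 to 0.153), and it was also lost with reference gene scaling (0.0521), with summed transfections (0.0560) and with the replicate block (0.0732). None of the 6 genes of the nuclear complex, the 5 Wnt target genes or the 6 noncanonical effectors tested was called between the times, and no gene of these lists was called between miR-25 and control cells. The median log2 change from 24 h to 48 h in controls was 0.28 for the relays, -0.10 for destruction and turnover, -0.25 for the nuclear complex, -0.07 for the target genes and -0.04 for the noncanonical effectors, beside 0.29 for the 6 receptors and 0.13 for all genes tested. At an unadjusted p under 0.05 between the times in controls there were all 3 ligands tested, 2 relays, 3 genes of destruction and turnover, 3 of the nuclear complex, 1 target gene and 1 noncanonical effector, beside 42 of the 136 panel genes. With miR-25 at 24 h, 4 of the 5 target genes had such a p, with all 5 fitted changes above 0 and a median of 0.12 beside 0.03 for all genes, as had 1 relay, 1 gene of destruction and turnover and 1 noncanonical effector, beside 9 of 136 panel genes (5 with TMM, 0 with no replicate block). At 48 h it was 1 ligand, 1 gene of the nuclear complex and 1 target gene, beside 17 of 136. The fitted changes of the target genes were then 3 above 0 and 2 below, with a median of 0.03 beside -0.01 for all genes. The lists were chosen with earlier results of these data known, so these counts are a description and no test of a list.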

How the data were processed

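The authors deposited raw counts per probe from the Digital Analyser, read with nSolver 3.0, before the background correction, positive control scaling and transfection efficiency correction that their methods describe. Of 199 identifiers, 193 were named from the study's panel sheet and 6 from a RefSeq table; no genome build applies. The main test was the quasi-likelihood test of edgeR 4.0.16 in R 4.3.3, with library size taken as the panel total, a filter at a mean of 20 counts, Benjamini-Hochberg adjustment and a threshold of 0.05. The miR-25 comparisons used 12 samples with the transfection pair as a block: deviations from the group means correlated at 0.282 to 0.893 within the 6 pairs. The time comparisons used 6 samples of 1 arm with no block. Pair ratios were tested by an exact sign-flip permutation over all sign patterns (numpy 2.4.6). Alternatives were DESeq2 1.42.0, limma 3.58.1 on log2 values with a pseudocount of 1, TMM, reference gene and GAPDH-free scaling, background subtraction, other count filters and samples left out. Intervals are 95% intervals of the fit. The fits were tested on simulated counts with planted changes. For the time design those counts had less spread than the data, so they do not show the power of the time tests. Replicates of a group differed by more than sampling noise. Members and gene lists were chosen with earlier results of these data known, and the genes named are the members, the other Frizzled genes, the 2 genes most like each member, called Wnt pathway genes, markers and reference genes. Figures were drawn with matplotlib 3.10.9.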

Additional observations from a re-analysis of the deposited data

How the results depend on the processing

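The number of receptors called between miR-25 and control cells was 0 under all alternatives run, including no replicate block. Between the times it was 0 in both arms, also with the replicate block, which is no pairing here (deviations of same-numbered samples correlated at -0.083 to 0.073 across times), and with other scalings and tools. It was 0 to 3 in controls and 0 to 2 in miR-25 cells with 1 sample left out, where only 48 h replicate 1 moved it, and 3 with summed transfections without that replicate. Over the panel, calls between the times were 7 in each arm; DESeq2 gave 22 in controls and 37 in miR-25 cells, TMM 10 and 14, reference gene scaling 7 and 4, and the replicate block 0 and 0.

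The log2 changes that turned direction were the following. With miR-25 at 24 h, FZD5 was -0.026 with TMM, -0.001 with reference genes, -0.005 without GAPDH and -0.029 with DESeq2, which also gave FZD3 -0.003. At 48 h, FZD8 was -0.001 with TMM, -0.005 with reference genes and with 48 h samples alone, -0.072 with DESeq2, -0.125 with limma and -0.036 with no replicate block. Between the times, FZD2 in controls was -0.004 with limma, and FZD6 was -0.024 with summed transfections without 48 h replicate 1. With 1 replicate left out, the ranges at 24 h were -0.011 to 0.172 for FZD2, -0.056 to 0.147 for FZD3, -0.056 to 0.103 for FZD5 and -0.14 to 0.138 for FZD8. At 48 h they were -0.12 to 0.023 for FZD1 and -0.149 to 0.146 for FZD8. Between the times they were -0.129 to 0.483 for FZD2 in controls, and -0.073 to 0.107 for FZD6 and -0.131 to 0.428 for FZD8 in miR-25 cells. The cause was not tested. The lowest samples of FZD2, FZD3, FZD5 and FZD8 had 31 to 46 counts, where counting error alone was 14.7% to 18.0% of a value.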
